A study of Homo sapiens with 6 samples.

Results

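The genes described here encode collagens and the glycoproteins, proteoglycans and crosslinking enzymes that surround cells as extracellular matrix. They are a list of 50 genes, of which 49 had a probe set naming that gene alone, out of 11963 genes measured in this way on the array; COL12A1 had none and was not analysed here. Each gene was read from the probe set that was brightest on average across the 6 arrays. RNA came from cells labelled HSC2, a human oral squamous carcinoma line, and was measured on 6 single-colour arrays, 3 of cells stably transfected with cDNA of full-length wild-type MALT1 and 3 of cells that carry the vector alone, labelled mock. Both kinds of cell had been established earlier and were grown in the same serum-containing medium, and the labels name no further treatment. MALT1 is a paracaspase of NF-kappaB signalling, and the comparison was designed to show its responsive genes. The labels do not say whether a transfected line is 1 clone or a pool. They also do not say that arrays of a group came from separate cultures, so the p-values reflect the spread among these arrays alone, and that spread may be technical.

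Carcinoma cells of squamous epithelium rest on a basement membrane, a sheet in which collagen IV and laminin networks are tied together by nidogen and perlecan, whereas fibrillar collagens are made mainly by fibroblasts. Matricellular proteins such as SPARC, thrombospondin and tenascin modulate how cells hold on to the matrix and are secreted by many tumour cells. Lysyl oxidases crosslink collagen, and syndecans and glypicans are heparan sulphate proteoglycans of the cell surface.

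The MALT1 transcript itself went against the labels. Its brightest probe set averaged 182 ± 10.2 in the MALT1 group, against 253 ± 4.34 in the mock group (SD, 3 arrays per group; log2 difference −0.47 ± 0.08 SE, limma adjusted p = 0.0104). A second probe set fell too (−1.08 ± 0.12 SE, adjusted p = 0.0022), and the remaining one did not pass (−0.28 ± 0.10 SE, adjusted p = 0.0969). The groups are therefore called by their labels, and every direction below is that of the labels. Where these probes lie against the transfected cDNA was not analysed here. All 7 measured markers of squamous or basal keratinocytes were lower on the arrays labelled MALT1, with a summed signal of 5856 to 5961 against 26943 to 29257 on the arrays labelled mock. All 10 markers of luminal breast epithelium were higher, with a summed signal of 76182 to 84450.2 against 8897 to 9644. Of these 10, KRT19, TFF1 and FOXA1 lay at or below the dim level on every array labelled mock. That level is a signal of 17.6, the highest reading of the bacterial trp control probe sets on any array. Of 5 endothelial markers 0 passed and 3 were dim on every array, and of 4 measured leukocyte markers 1 rose, CD14, at readings of 7.41 to 27.1 against 0.971 to 2.26. The part of these markers in the matrix results was not tested. KRT19, a luminal keratin, averaged 12414 ± 567 in the MALT1 group, against 1.25 ± 0.0665 in the mock group, and GATA3, a luminal transcription factor, 12863 ± 1303 against 191 ± 25.7 (SD, 3 arrays per group). Both groups bear the label HSC2, but whether their arrays hold the same cell line was not tested, and a difference of cell line cannot be told apart from the transfection in any difference given below. In bulk RNA fewer cells of a type and less RNA per cell cannot be told apart. Median array signals were 69.3 to 79.0 in the MALT1 group, against 64.1 to 68.2 in the mock group. The ratio of 3′ to 5′ signal of GAPDH was 1.04 to 1.12 against 0.95 to 1.03. For ACTB, the other control, this ratio was higher in both groups, at 3.6 to 4.46 against 3.59 to 3.98.

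Matrix genes were more often lower than higher on the arrays labelled MALT1. At a limma adjusted p under 0.05, 19 of the 49 measured genes (38.8%) fell and 6 (12.2%) rose, while over all measured genes 19.2% fell, 21.1% rose and 40.4% passed in either direction. With at least a 2-fold change, 15 fell (30.6%) and 3 rose (6.12%), against 9.64% and 10.8% of all measured genes. The median log2 difference of the 49 was −0.54, or −0.24 with dim genes set at their bound, beside 0.08 and 0.00 over all measured genes. The members at −0.54 and −0.24, BGN and COL13A1, were not above the dim level of 17.6 on all arrays of either group. The members' median also moved with the setting. It was −0.26 with 16 in place of 1 added to the signal and −0.60 with nothing added. For the 24 members left after probe sets below the median signal were left out, it was −1.33. The split of calls leaned further to the lower side after each array was centred on its median, with 3 higher and 21 lower, and was 5 higher and 21 lower after quantile normalization. These scalings move the median difference of all probe sets by −0.13 and −0.12. Without MALT1 replicate 1 the higher calls dropped to 2, and without mock replicate 3 to 3, whereas the lower calls stayed between 18 and 21 whichever array was left out. The 2 groups did not overlap in 29 of the 49 genes (59.2%), which is close to the 54.6% of all measured genes.

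Members above the dim level carried nearly all of the calls. The signal lay above 17.6 on all 3 arrays of at least 1 group for 32 genes, of which 19 fell, 5 rose and 8 did not pass. Calls among all genes under this condition were not counted, and a gene can meet it through its higher group alone. Above 17.6 on at least 1 array were 45 members, of which 19 (42.2%) fell and 6 (13.3%) rose. Of all genes that met this looser condition, 22.1% fell and 24.0% rose. The 17 genes outside the 32 were not above 17.6 on all 3 arrays of either group, with signals of 0.329 to 62.4. Only LOXL1 among them passed. For the rest of these 17 no fold is given, apart from the medians above, since each group held at least 1 reading of the size of the bacterial controls.

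**Figure D1:**
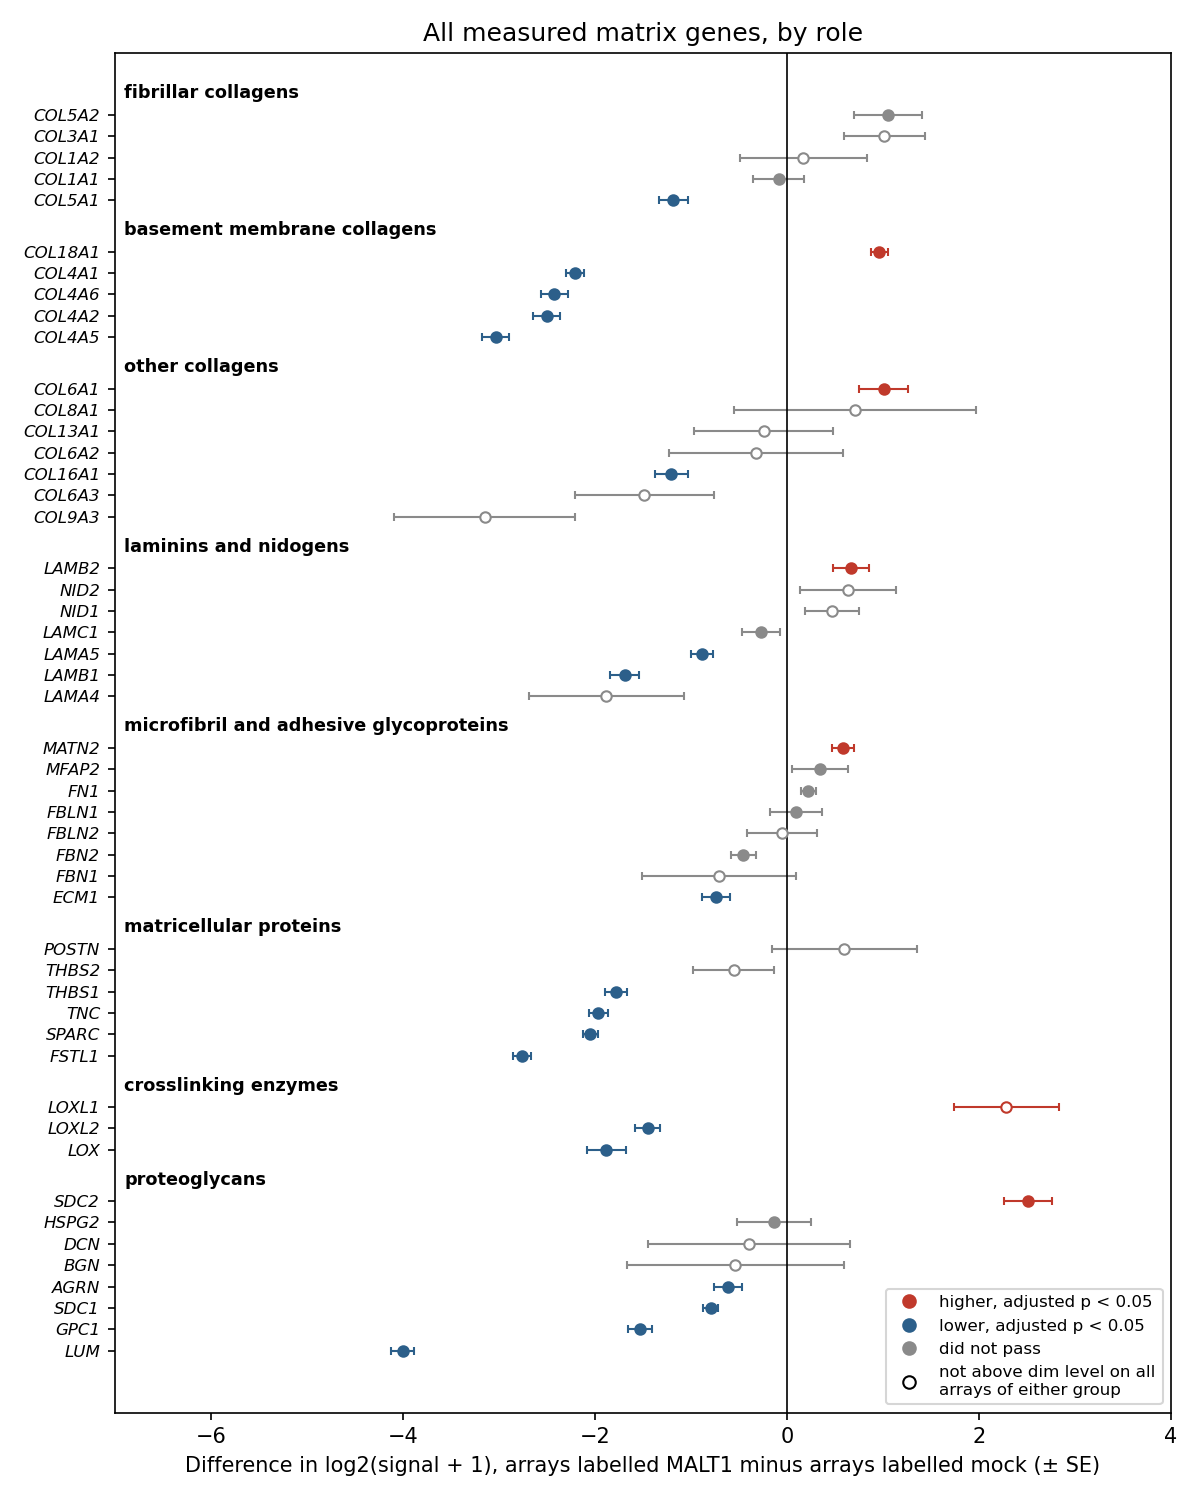
Difference in log2(signal + 1) between arrays labelled MALT1 and arrays labelled mock (horizontal axis, bars are ± SE of the limma fit, 3 arrays per group) for the 49 measured matrix genes, grouped by role. The 4 collagen IV chains and SPARC, FSTL1, TNC and THBS1 lie between −1.78 and −3.03, while open circles mark genes not above the dim level on all arrays of either group.

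The collagen IV chains fell together. Collagen IV is the network-forming collagen of basement membranes; COL4A1 and COL4A2 make its ubiquitous form, and COL4A5 and COL4A6 chains occur in the basement membranes of skin and other epithelia. The signal of COL4A1 was 304, 316 and 351.4 on the arrays labelled MALT1, against 1465, 1510.4 and 1509 on the arrays labelled mock (log2 difference −2.21 ± 0.09 SE, limma adjusted p = 0.000105). For COL4A2 it was 139, 149 and 184, against 965, 868 and 833 (−2.50 ± 0.14 SE, adjusted p = 0.000224). In both genes all mock arrays stood far above all arrays labelled MALT1. COL4A5 read 136, 107 and 134 on the arrays labelled MALT1, against 1117, 1058 and 919.7 on the arrays labelled mock, the furthest from 0 of the 4 chains (log2 difference −3.03 ± 0.14 SE, adjusted p = 0.00014). COL4A6 read 149, 166 and 174 against 827, 1030.2 and 792 (−2.42 ± 0.14 SE, adjusted p = 0.000244). No array of one group reached the range of the other in any of these chains, and all 8 probe sets of the 4 genes were called lower.

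**Figure D2:**
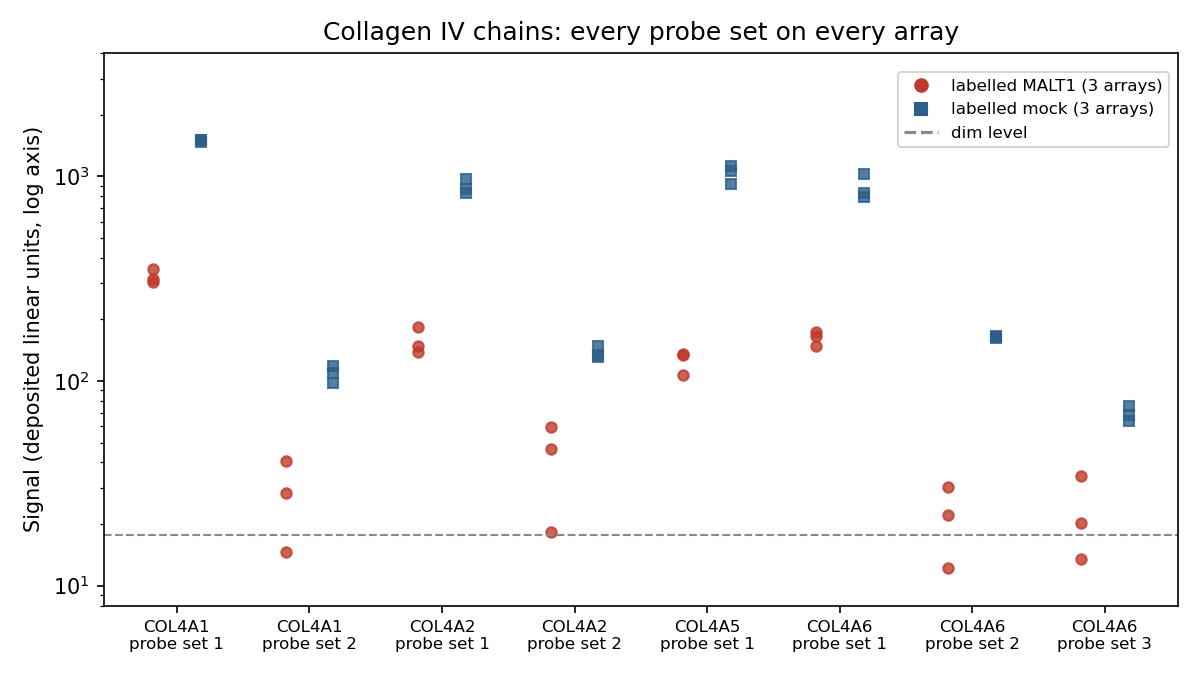
Signal of each of the 8 collagen IV probe sets (log axis, deposited linear units) on the 3 arrays labelled MALT1 (circles) and the 3 labelled mock (squares), with the dim level of 17.6 as a dashed line. All arrays labelled MALT1 lie below all arrays labelled mock on every probe set, and some of the dimmer readings reach the dim level.

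These 4 genes lie in pairs, head to head, so that the 2 genes of a pair start from 1 stretch of DNA. In the RefSeq gene starts of GRCh38.p14, COL4A1 (minus strand) and COL4A2 (plus strand) on chromosome 13 are 126 bases apart. COL4A6 (minus strand) and COL4A5 (plus strand) on chromosome X are 379 bases apart, and COL4A6 has another start 1415 bases from that of COL4A5. The log2 difference of COL4A1 minus that of COL4A2 was 0.29 ± 0.10 (SE, n = 3 arrays per group), and that of COL4A5 minus that of COL4A6 was −0.61 ± 0.18. An exact two-sided permutation test of each gave p = 0.1, the smallest that 3 against 3 arrays allow, and 0.1 after adjustment over the 5 gene pairs compared. Each difference was the most extreme of its possible arrangements, and this test cannot reach a p under 0.05 with so few arrays. The promoters of these genes are shown because their transcripts fell together and because each pair shares its stretch. Each is written 5′ to 3′ up to the base before the start, and capitals mark matches, on either strand, to 4 motifs. These are the CCAAT box with the letters CCAAT, the GC box with the letters GGGCGG, the TATA box with the letters TATAAA, and the AP-1 element with the letters TGACTCA. The stretch between COL4A1 and COL4A2 is chr13:110307158-110307283 on the strand of COL4A2, and that of COL4A5 is chrX:108439588-108439837, which lies wholly between the starts of COL4A5 and COL4A6.
COL4A1 and COL4A2: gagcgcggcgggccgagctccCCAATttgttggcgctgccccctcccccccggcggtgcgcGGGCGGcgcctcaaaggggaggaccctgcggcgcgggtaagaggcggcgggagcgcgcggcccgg
COL4A5: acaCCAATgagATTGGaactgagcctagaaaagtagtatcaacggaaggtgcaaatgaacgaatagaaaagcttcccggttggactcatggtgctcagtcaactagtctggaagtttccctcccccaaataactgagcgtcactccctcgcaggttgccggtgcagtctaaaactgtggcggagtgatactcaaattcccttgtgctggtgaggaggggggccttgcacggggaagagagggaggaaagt
The stretch shared by COL4A1 and COL4A2 held 1 CCAAT and 1 GGGCGG, and the 250 bases shown for COL4A5 held 2 CCAAT and none of the other motifs. Those are only part of the 379 bases between the starts of COL4A5 and COL4A6. GGGCGG occurred within the 250 bases before a start of COL4A6.

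COL18A1 went the other way from the rest of the basement membrane collagens. It encodes the core of a heparan sulphate proteoglycan whose end fragment is endostatin. Its signal was 199, 208 and 221 on the arrays labelled MALT1, against 107, 103 and 110.2 on the arrays labelled mock (log2 difference 0.96 ± 0.09 SE, limma adjusted p = 0.000989). The groups did not overlap, and its other probe set rose as well (0.94 ± 0.13 SE, adjusted p = 0.00422). Thus, of 5 basement membrane collagens, 4 fell and 1 rose.

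Laminins are heterotrimers that polymerise beneath epithelia, and their chains did not move together. LAMB1 read 430.0, 427 and 340.0 on the arrays labelled MALT1, against 1464, 1258 and 1142 on the arrays labelled mock (log2 difference −1.69 ± 0.15 SE, limma adjusted p = 0.000993), and its second probe set gave −1.71 ± 0.15. LAMA5, the alpha chain of the laminins typical of mature epithelial basement membranes, read 284, 268 and 315 against 577, 492 and 529 (−0.88 ± 0.11 SE, adjusted p = 0.00301). Neither gene overlapped between groups. LAMB2, the alternative beta chain, read 81.3, 69.99 and 110.4 against 51.8, 53.1 and 55.6 (0.67 ± 0.19 SE, adjusted p = 0.0421), and this call was lost in 7 of 14 alternative settings. These include leaving out MALT1 replicate 1 (adjusted p = 0.0924) or mock replicate 1, 2 or 3 (adjusted p = 0.118, 0.113 and 0.0967). LAMC1, the gamma chain shared by most laminins, did not pass on its brightest probe set, with 545, 694 and 850.1 against 733, 917 and 840.3 (−0.27 ± 0.20 SE, adjusted p = 0.361), and its groups overlapped. A dimmer LAMC1 probe set did pass (−0.36 ± 0.09 SE, adjusted p = 0.0264). The log2 difference of LAMB1 minus that of LAMB2 was −2.36 ± 0.33 (SE), and LAMB1 minus LAMC1 was −1.42 ± 0.34, each at an exact permutation p = 0.1, the smallest possible here. LAMA4 and the laminin-collagen linkers NID1 and NID2 were not above the dim level on all arrays of either group. Of the 7 laminin and nidogen genes, 2 fell, 1 rose and 4 did not pass.

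Of the fibrillar collagens, the chains of tissue fibres, only COL5A1 passed. COL5A1, which regulates fibre diameter, read 80.2, 55.8 and 67.9 on the arrays labelled MALT1, against 152, 156 and 154 on the arrays labelled mock (log2 difference −1.18 ± 0.15 SE, limma adjusted p = 0.00308). All 3 of its probe sets fell and the groups did not overlap. COL1A1, a chain of collagen I, read 72.8, 57.7 and 83.5 against 83.3, 94.8 and 53.1 (−0.09 ± 0.27 SE, adjusted p = 0.846), with overlapping groups. One of its 3 dimmer probe sets was called higher, at 21.6 ± 6.76 against 5.31 ± 2.61 (mean ± SD, n = 3 each; adjusted p = 0.0207), near the dim level. COL5A2, the partner chain of COL5A1, read 39.5, 20.8 and 29.8 against 21.00, 11.2 and 10.3 (1.05 ± 0.36 SE, adjusted p = 0.0776), and passed without mock replicate 1 (adjusted p = 0.0381). COL1A2 and COL3A1 did not rise above the dim level on all arrays of either group. Of the 5 fibrillar collagens, 1 fell and 4 did not pass, and of 10 fibroblast markers only LUM passed. Those markers, of which COL1A1, COL3A1, DCN and LUM are members too, summed to 345 to 459 in the MALT1 group, against 407 to 472 in the mock group, and PDGFRA and FAP were dim on every array.

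The remaining collagens held 1 fall and 1 rise among 7 measured. COL16A1, a fibril-associated collagen, read 40.98, 45.7 and 61.7 on the arrays labelled MALT1, against 113, 119 and 108 on the arrays labelled mock (log2 difference −1.20 ± 0.17 SE, limma adjusted p = 0.00464), with no overlap. COL6A1, a chain of the beaded-filament collagen VI, read 45.1, 68.9 and 41.9 against 25.3, 30.3 and 19.6 (1.01 ± 0.26 SE, adjusted p = 0.0326). None of its 7 other probe sets passed, and the call was lost in 7 of the 13 alternative settings that tested it. Without MALT1 replicate 1 or 2 the adjusted p was 0.0675 or 0.0618, and without mock replicate 1 or 3 it was 0.0875 or 0.0891. With its probe sets averaged the log2 difference was 0.06. COL9A3, a cartilage collagen chain, read 1.62, 1.80 and 4.49 against 6.50, 59.3 and 61.1 and did not pass (adjusted p = 0.0529), with 1 of its mock arrays close to the arrays labelled MALT1. COL6A2, COL6A3, COL8A1 and COL13A1 were not above the dim level on all arrays of either group.

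Of 6 matricellular genes, 4 fell and 2 did not pass. SPARC, a collagen-binding calcium protein, read 846, 824 and 835 on the arrays labelled MALT1, against 3530.1, 3346 and 3485 on the arrays labelled mock (log2 difference −2.05 ± 0.08 SE, limma adjusted p = 9.01e-05). FSTL1, a secreted follistatin-like relative of SPARC, read 195, 183 and 214 against 1377, 1351 and 1289.6 (−2.76 ± 0.10 SE, adjusted p = 7.6e-05). Arrays within a group lay close together for both genes and the groups were far apart. TNC, tenascin C, an anti-adhesive glycoprotein of wound and tumour matrix, read 366, 377 and 338 against 1382, 1513 and 1326 (−1.96 ± 0.10 SE, adjusted p = 0.000164). A dimmer TNC probe set did not pass (−0.70 ± 0.28 SE, limma adjusted p = 0.121). THBS1, thrombospondin 1, an activator of latent TGF-beta, read 3639, 4085 and 3234 against 12276, 12566 and 12533 (−1.78 ± 0.11 SE, adjusted p = 0.000326). THBS1 fell further on 3 dimmer probe sets. Of these, 2 gave −2.80 ± 0.09 and −2.60 ± 0.10 (SE), and on the last, dim on every array labelled MALT1, it was at least 5.06-fold lower (adjusted p = 0.00809). One of the 5 THBS1 probe sets did not pass (−0.83 ± 0.42 SE, adjusted p = 0.198). THBS2 and POSTN were not above the dim level on all arrays of either group.

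The promoters of FSTL1, SPARC and THBS1, together with that of LAMB1, are given as examples for comparison with those of collagen IV; they were picked after the values were seen from the genes whose falls were called in all 14 alternative settings. In GRCh38.p14 they are chr3:120450993-120451242 (minus strand), chr5:151686916-151687165 (minus strand), chr15:39580829-39581078 (plus strand) and chr7:108003162-108003411 (minus strand), from RefSeq, with capitals as above.
FSTL1: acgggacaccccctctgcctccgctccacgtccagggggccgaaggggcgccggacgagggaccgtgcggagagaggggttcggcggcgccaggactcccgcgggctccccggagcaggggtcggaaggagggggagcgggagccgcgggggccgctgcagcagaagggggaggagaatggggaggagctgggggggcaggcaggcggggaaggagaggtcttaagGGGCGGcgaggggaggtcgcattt
SPARC: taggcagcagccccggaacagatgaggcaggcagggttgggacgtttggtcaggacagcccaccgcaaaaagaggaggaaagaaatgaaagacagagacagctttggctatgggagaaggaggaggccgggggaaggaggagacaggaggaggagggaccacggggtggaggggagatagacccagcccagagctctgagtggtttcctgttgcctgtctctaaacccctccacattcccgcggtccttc
THBS1: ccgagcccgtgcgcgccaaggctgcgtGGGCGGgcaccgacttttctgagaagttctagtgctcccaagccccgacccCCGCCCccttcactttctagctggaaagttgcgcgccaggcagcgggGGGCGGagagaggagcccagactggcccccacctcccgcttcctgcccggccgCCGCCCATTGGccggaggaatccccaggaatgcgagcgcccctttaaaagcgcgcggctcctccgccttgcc
LAMB1: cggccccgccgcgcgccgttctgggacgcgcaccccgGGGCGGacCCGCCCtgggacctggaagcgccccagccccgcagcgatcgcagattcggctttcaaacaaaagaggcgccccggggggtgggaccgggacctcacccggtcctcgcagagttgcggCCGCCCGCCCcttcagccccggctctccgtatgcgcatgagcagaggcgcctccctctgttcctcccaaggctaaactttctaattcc
FSTL1 held 1 GGGCGG, THBS1 held 4 of them and 1 CCAAT, LAMB1 held 4 GGGCGG, 2 of them overlapping, and SPARC held none of the 4 motifs. Of the 15 genes that fell at least 2-fold, 13 had an entry in the promoter table; LOXL2 and LUM had none. Within the 250 bases before the start, GGGCGG occurred in 11 of these 13 (84.6%), against 67.6% of the 9563 array genes with an entry. Among the 37 listed members with an entry, fallen or not, it occurred in 28 (75.7%). COL4A1 and COL4A2 both count here although they share a stretch. CCAAT occurred in 6 of 13 (46.2%), against 42.4% of the array genes and 27% of the 37 members. These 6 include COL4A1 and COL4A2, and also COL4A5 and COL4A6. The 250-base windows of COL4A5 and COL4A6 overlap, and the CCAAT letters shown for COL4A5 lie in both. The TATA box letters occurred in 0 of 13, against 11% of the array genes and 16.2% of the 37 members. The AP-1 letters occurred in 0 of 13, against 4.68% and 8.11%. These are counts of letters in 1 window and say nothing of binding.

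**Figure D3:**
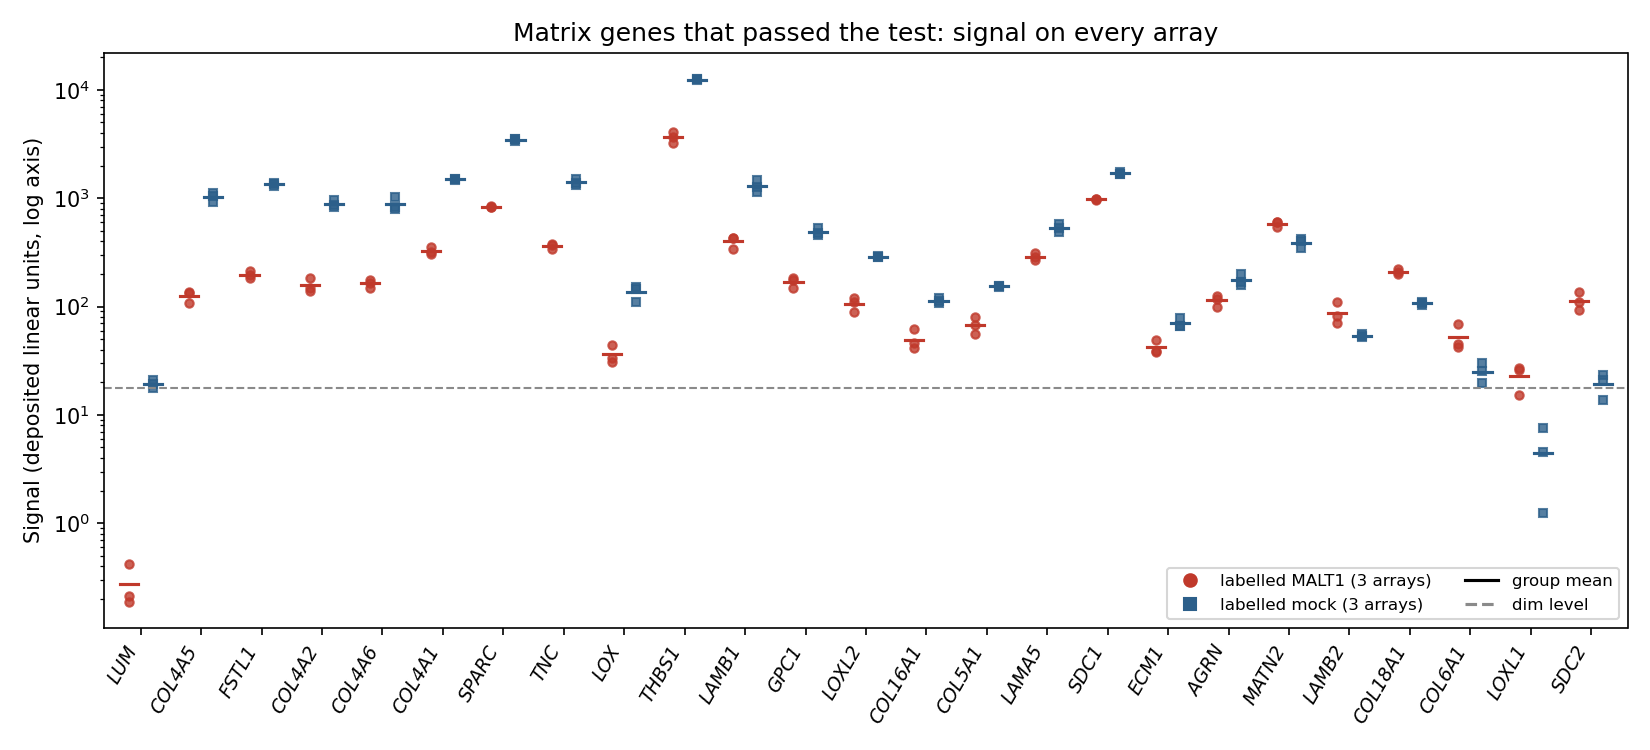
Signal (log axis, deposited linear units) of the 25 matrix genes that passed the test, ordered by log2 difference, on the 3 arrays labelled MALT1 (circles) and the 3 labelled mock (squares); short bars are group means and the dashed line is the dim level of 17.6. From LUM to AGRN the arrays labelled MALT1 lie lower, and from MATN2 to SDC2 they lie higher, without overlap in any gene.

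Of 8 microfibril and adhesive glycoproteins, 1 rose, 1 fell and 6 did not pass. FN1, fibronectin, the main adhesive glycoprotein bound by integrins, read 1309, 1272 and 1269.9 on the arrays labelled MALT1, against 1087, 1064 and 1144 on the arrays labelled mock (log2 difference 0.23 ± 0.08 SE, limma adjusted p = 0.0858). The groups did not overlap, and 3 of its 6 probe sets were called higher, by 0.29 to 0.42. FN1 passed in 4 of 14 alternative settings. MATN2, an oligomeric matrix adaptor, rose, with 599, 602 and 545 against 417, 406 and 345 (0.58 ± 0.11 SE, adjusted p = 0.0134), a call lost without MALT1 replicate 1 or 2 (adjusted p = 0.0513 and 0.0504). ECM1, a skin matrix glycoprotein, fell, with 38.6, 38.2 and 49.1 against 65.9, 78.6 and 66.3 (−0.74 ± 0.14 SE, adjusted p = 0.0138), a call lost without MALT1 replicate 1 (adjusted p = 0.0513). FBN2, a microfibril fibrillin, read 172, 139 and 188 against 229, 222 and 227 (−0.45 ± 0.13 SE, adjusted p = 0.0529). Its other, dimmer probe set fell (−1.52 ± 0.11 SE, adjusted p = 0.000483), and the gene passed in 7 of 14 alternative settings, one of them without MALT1 replicate 3 (adjusted p = 0.0388). FBLN1 and MFAP2 read between 26.2 and 62.00 in overlapping groups, and FBN1 and FBLN2 were not above the dim level on all arrays of either group.

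Of the lysyl oxidases, LOX and LOXL2 fell and LOXL1 rose. LOX read 33.2, 30.97 and 44.3 on the arrays labelled MALT1, against 146, 152 and 109 on the arrays labelled mock (log2 difference −1.88 ± 0.20 SE, limma adjusted p = 0.00174). Another LOX probe set fell (−1.94, limma adjusted p = 0.0012), and its remaining, dimmer one did not pass (adjusted p = 0.428). LOXL2 read 109, 88.6 and 120.0 against 287, 286 and 293 (−1.45 ± 0.13 SE, adjusted p = 0.00109), although neither of its 2 other probe sets passed, and the call was lost when the 3 were averaged (adjusted p = 0.285). LOXL1 lay near the dim level, with 25.9, 15.3 and 27.1 against 7.50, 1.25 and 4.54, so that only a bound of at least 1.25-fold higher can be given (adjusted p = 0.0266). Without MALT1 replicate 1 or 3, or mock replicate 3, LOXL1 did not pass (adjusted p = 0.0828, 0.0800 and 0.0671). The LOX and LOXL2 readings thus lay well apart between groups, while the mock readings of LOXL1 were all at background.

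Cell-surface and matrix proteoglycans split, with 4 lower, 1 higher and 3 that did not pass. SDC2, syndecan 2, usually described in mesenchymal cells, rose. Its signal was 111, 136 and 93.7 on the arrays labelled MALT1, against 23.4, 13.6 and 20.8 on the arrays labelled mock (log2 difference 2.51 ± 0.25 SE, limma adjusted p = 0.00136). A second SDC2 probe set rose and the third did not pass (adjusted p = 0.0986). SDC1, syndecan 1, the main syndecan of stratified epithelia, read 968, 974 and 992 against 1665, 1663 and 1756 (−0.79 ± 0.08 SE, adjusted p = 0.0013), and its s_at probe set did not pass (adjusted p = 0.165). The 2 syndecans moved in opposite directions, with a difference of −3.31 ± 0.27 for SDC1 minus SDC2 (exact permutation p = 0.1, the smallest possible).

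GPC1, glypican 1, a lipid-anchored coreceptor for growth factors, read 149, 176 and 183 on the arrays labelled MALT1, against 476, 459 and 535 on the arrays labelled mock (log2 difference −1.53 ± 0.12 SE, limma adjusted p = 0.000678), and its other probe set did not pass. Averaging both lost the call (adjusted p = 0.0673). AGRN, agrin, a basement membrane proteoglycan, read 99.7, 118 and 125 against 199.5, 159 and 168 (−0.61 ± 0.14 SE, adjusted p = 0.0244). Without MALT1 replicate 1 or 2 the call was lost (adjusted p = 0.0682 and 0.0634), as it was without mock replicate 1 or 3 (adjusted p = 0.0671 and 0.0621). None of the 3 other AGRN probe sets passed, and the mean over its probe sets had the opposite sign (0.02). HSPG2, perlecan, read 33.2, 34.8 and 34.8 against 30.8, 25.2 and 68.7, and did not pass (adjusted p = 0.83), with mock replicate 3 far from its group and a difference of 0.29 without it. LUM, lumican, a keratan sulphate proteoglycan of stroma, read 0.424, 0.189 and 0.212 against 17.8, 19.2 and 21.2. It was called lower (adjusted p = 5.95e-05), but with one group at background and the other just above it only a bound of at least 1.10-fold lower can be given. BGN and DCN, the other stromal members of this family, were not above the dim level on all arrays of either group.

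**Figure D4:**
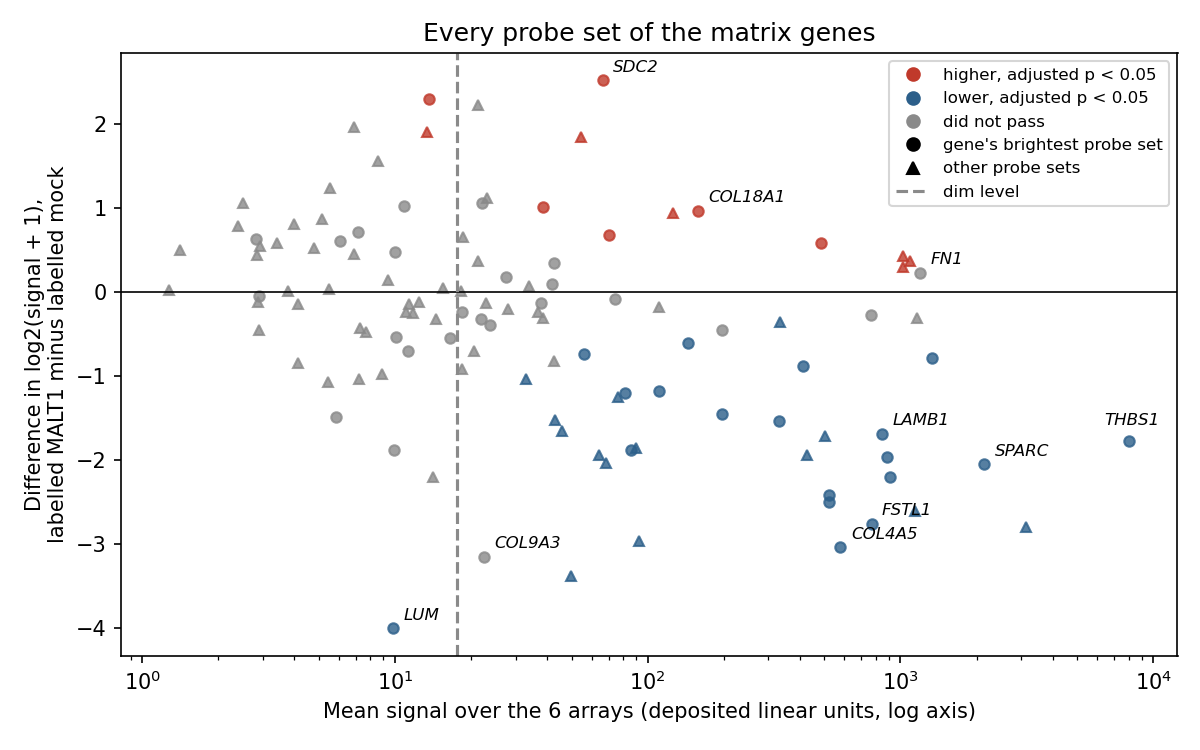
Difference in log2(signal + 1), labelled MALT1 minus labelled mock, of all 117 probe sets of the matrix genes against their mean signal over the 6 arrays (log axis); circles are the brightest probe set of a gene, triangles the others, and the dashed line is the dim level of 17.6. Of these probe sets 33 were called lower and 12 higher, together a share close to the 35.6% called over all probe sets of the array. That 35.6% was not split by direction. Of the 26 that were dim on all 6 arrays 0 passed.

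Probe sets of 1 gene did not always give the same call. Over all probe sets of the array 35.6% passed in either direction. Of the 25 genes that passed, 16 had more than 1 probe set. All probe sets passed the same way in 7 of these 16, some did not pass in 9, and in 0 did a probe set pass the other way. The 7 include COL4A1, COL4A2, COL4A6, COL5A1, COL18A1, LAMB1 and SPARC. Of the 25, 15 were read from probe sets marked s_at, which can bind several transcripts.

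Genes that process collagen or bind the matrix were examined in lists beside the members. Over all measured genes 21.1% rose and 19.2% fell. Of 17 measured genes for collagen processing, 3 rose (17.6%), 7 fell (41.2%) and 7 did not pass, with a median log2 difference of −0.15. The gene at this median read 6.23 to 39.8 across all arrays. P4HA2, a prolyl 4-hydroxylase subunit, rose to 1043 ± 76.4 in the MALT1 group, against 138 ± 6.47 in the mock group (SD, 3 arrays per group; log2 difference 2.91 ± 0.10 SE, limma adjusted p = 6.94e-05). P4HA1, named because it is another prolyl 4-hydroxylase subunit, fell (−1.26 ± 0.11 SE, limma adjusted p = 0.00082). SERPINH1, the collagen chaperone HSP47, fell (−1.13 ± 0.08 SE, adjusted p = 0.000481), as did SEC23A, a coat subunit of the vesicles that export procollagen (−1.18 ± 0.09 SE, adjusted p = 0.000634). Of 9 measured collagen and laminin receptors, 0 rose, 7 fell and 2 did not pass, with a median of −1.45; DDR2, named after its values were seen because it sits at that median, was among the 7 although dim on every array. They include ITGA6 (−2.59 ± 0.09 SE), ITGB4 (−1.85 ± 0.09 SE) and ITGA3 (−2.05 ± 0.17 SE), integrin chains of laminin receptors, and ITGB4 is also one of the keratinocyte markers. Of 5 receptors for fibronectin and other RGD proteins, 1 rose, 0 fell and 4 did not pass; the one was ITGB5, at 1910.3 ± 17.4 against 689.7 ± 32.1 (1.47 ± 0.08 SE, adjusted p = 0.00022). Of 25 other matrix genes, 3 rose (12%), 10 fell (40%) and 12 did not pass, with a median of −0.45. The gene at that median was dim on every array. Among them the laminin-332 chain LAMB3 (−3.08 ± 0.08 SE), also a keratinocyte marker here, and CCN1 (−2.72 ± 0.12 SE), a matricellular protein, fell, and the glypican GPC4 rose (2.34 ± 0.12 SE). The keratinocyte markers had a median of −2.66. With only 2 groups every fall lies on the same arrays by design, which shows no link between lists. Such a link was not tested.

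**Figure D5:**
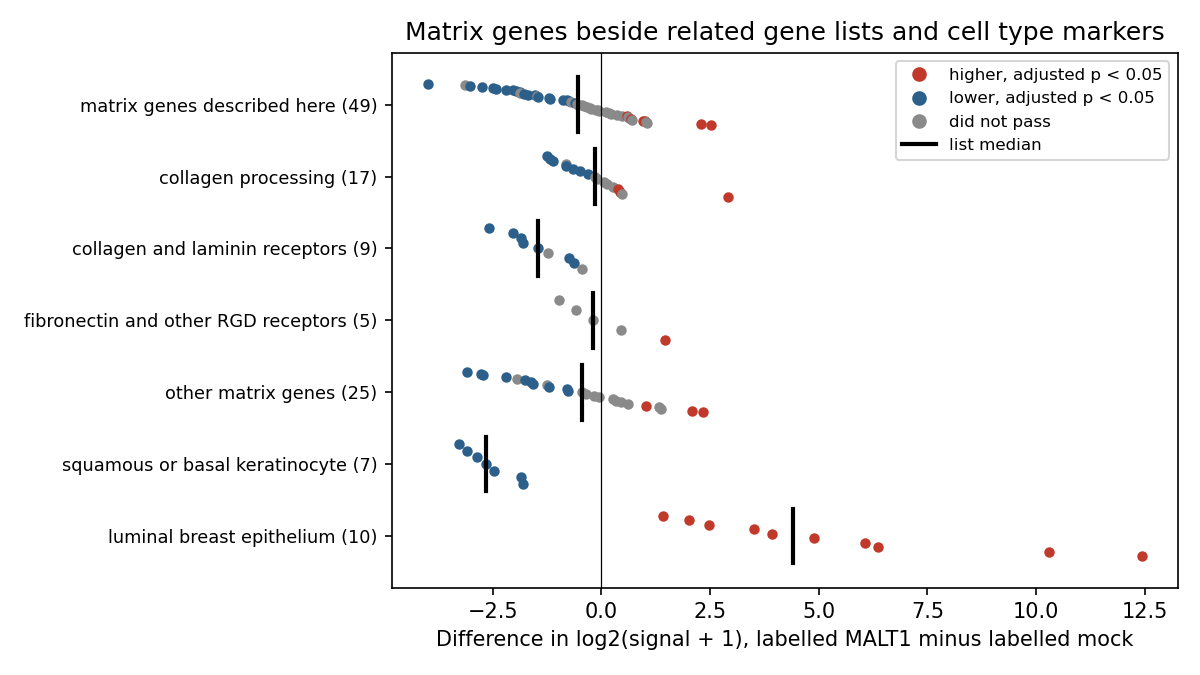
Difference in log2(signal + 1), labelled MALT1 minus labelled mock, for each gene (points) of the matrix genes described here and of related lists and markers, with list medians as vertical bars and the number measured in brackets. The keratinocyte markers lie wholly below 0 and the luminal breast markers wholly above it, with the matrix genes on both sides and a median of −0.54. The matrix gene at that median was not above the dim level on all arrays of either group.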

How the data were processed

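Biotin-labelled RNA from 6 samples was hybridised to Affymetrix arrays, 1 array per sample, per the labels' protocols. The authors deposited linear intensity values, 1 per probe set; software and genome build are not given in the sources used here, and from the values each array was scaled to a 2% trimmed mean of about 500.1 to 500.2. Groups came from the sample labels. Apart from 62 control probe sets, all 22215 probe sets entered the test as log2(signal + 1) with limma 3.58.1 in R 4.3.3 (lmFit and eBayes, group as the only term, two-sided, Benjamini-Hochberg over all 22215), with no filter on signal. The script was tested on simulated data. Genes were named from the 19064 probe sets with 1 symbol, updated by gene ID to RefSeq; the brightest probe set stood for a gene. Where every array of a group read 17.6 or less, a fold is given as a bound, from the other group's geometric mean and 17.6, a level set with the data in view. The number of arrays limits the precision. The members and lists were chosen with earlier results of these data known. The genes named are MALT1, the members, and genes of the other lists. From each processing, receptor or other matrix list these were up to 3 with the smallest adjusted p, with DDR2 and P4HA1 added. The named cell type markers were not picked by that rule. Those markers, the gene pairs and the promoters were chosen after values were seen. Promoters were the 250 bases before RefSeq starts. Settings varied were the pseudocount, a signal filter, scaling, averaging of probe sets, a replicate block, the variance trend and each array left out.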

Additional observations from a re-analysis of the deposited data

How the results depend on the processing

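Of the 25 matrix genes that passed, 17 kept their direction and call in every one of the 14 alternative settings that tested them, among them 14 of the 18 with at least a 2-fold change. The call was lost in 7 settings for COL6A1 and LAMB2, 6 for AGRN, 3 for MATN2 and LOXL1, 2 for ECM1, and 1 for LOXL2 and GPC1, the last 2 with probe sets of a gene averaged. The count of members higher was 3 after median centring and 2 to 5 with 1 array left out, against 6; the count lower was 17 to 21 in all settings, against 19. The labels do not say whether the replicate numbers pair the arrays. Deviations of same-numbered arrays correlated at 0.0586, −0.00249 and 0.0607 over 11108 probe sets, and those of differently numbered arrays at −0.082 to 0.0478. Such correlations cannot decide whether arrays were paired. With a replicate block 6 members were higher and 17 lower. Changes of sign were counted only in the 33 members that passed or lay above 17.6 on all arrays of a group. Log2 differences changed sign in 4 of them, of which AGRN alone had passed. With probe sets averaged, COL1A1 was at 0.19, FBLN1 at −0.0448, AGRN at 0.0177 and HSPG2 at 0.18. FBLN1 was at −0.0335 after median centring and −0.12 after quantile normalization. With 1 array left out, COL1A1 ranged over −0.33 to 0.0827, FBLN1 over −0.15 to 0.26 and HSPG2 over −0.42 to 0.29. The cause of these shifts was not tested. Signal over background limits the 17 members that were not above 17.6 on all arrays of either group.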
